A study of Mus musculus with 9 samples.

Results

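The 34 genes described here mark endothelial cells, the cells that line blood and lymph vessels. They were chosen by name, as array probes whose annotated gene symbol is on a list of endothelial identity genes. The list was chosen with earlier results of these data known. Of the 34, 32 had a named probe, and 29 of the 10073 genes kept by the detection filter were among them (a probe was kept when its detection p-value was under 0.05 on at least 3 of the 9 arrays). Cldn5 and Ecscr had no named probe, and Flt4, S1pr1 and Clec14a had probes that did not pass the filter.

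The samples were pools of tomato-positive cells from periosteum of the tibia, sorted from B6;129S6 mice of genotype αSMACreERT2/Ai9. Cre in this line is under the alpha smooth muscle actin (Acta2) promoter and acts only after tamoxifen, which switches on the red protein tomato from Ai9 in cells using that promoter and in their progeny. All animals, controls included, carried both alleles and were given 2 doses of tamoxifen at 75 µg per g. The 3 groups of 3 pools were unfractured periosteum collected on day 2 (8 to 9 animals of 4 to 5.5 months per pool), periosteum 2 days after fracture (7 to 8 animals of 2 to 5.5 months) and periosteum with soft callus 6 days after fracture (4 to 8 animals of 3 to 5.5 months). Each group held 2 male pools and 1 female pool, and no unfractured pool of day 6 was analysed here. Endothelial cells are not the usual target of this promoter, and the source of endothelial transcripts within the sort was not tested.

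Endothelial cells are held together by junctions built on VE-cadherin and claudins, and their growth and survival are controlled by receptors for vascular endothelial growth factor (VEGF) and angiopoietin. Their identity is maintained by transcription factors of the ETS family, such as Erg and Fli1, by the SoxF factors Sox7, Sox17 and Sox18, and, early in development, by Tal1. Intact periosteum is rich in vessels, whereas the cartilage that forms in an early callus is known to be poor in them.

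Between 10387 (40.4%) and 14173 (55.2%) of 25697 probes were detected per array; precision is limited by having 3 arrays in a group. Values are log2 intensities after background correction and quantile normalisation, and pools are always given in the order of replicates 1, 2 and 3. In 1 pool of each group leukocyte transcripts were far higher than in the others. The mean of 27 measured genes of a list of 30 macrophage and pan-leukocyte genes was 7.41, 6.74 and 10.47 without fracture, 12.01, 7.59 and 8.19 on day 2 and 10.33, 7.47 and 7.84 on day 6. Unfractured replicate 3, day 2 replicate 1 and day 6 replicate 1 are called leukocyte-rich below. Results are given for all 9 pools, for the 6 pools without these 3, and, as differences with no test, for the 3 alone. The pan-leukocyte phosphatase gene Ptprc was detected in 1 pool of each group, the leukocyte-rich one.

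Endothelial transcripts were measured in the tomato-positive cells of all groups, and 26 of the 29 measured genes were detected on all 9 arrays. Among the defining markers, Pecam1, Cdh5, Vwf, Tie1, Tek and Emcn were detected in every pool, while the probe of Kdr lay near background and was detected on 5 of the 9 arrays. The mean log2 intensity of the 29 genes was 11.07, 10.75 and 9.61 without fracture, 9.34, 9.20 and 8.26 on day 2 and 9.85, 8.01 and 8.49 on day 6. It was highest in unfractured replicates 1 and 2 and lowest in day 6 replicate 2. The leukocyte-rich day 6 pool, at 9.85, lay above the leukocyte-rich unfractured pool, at 9.61. In cells pooled before measurement, fewer endothelial cells and less RNA per endothelial cell cannot be told apart.

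**Figure D1:**
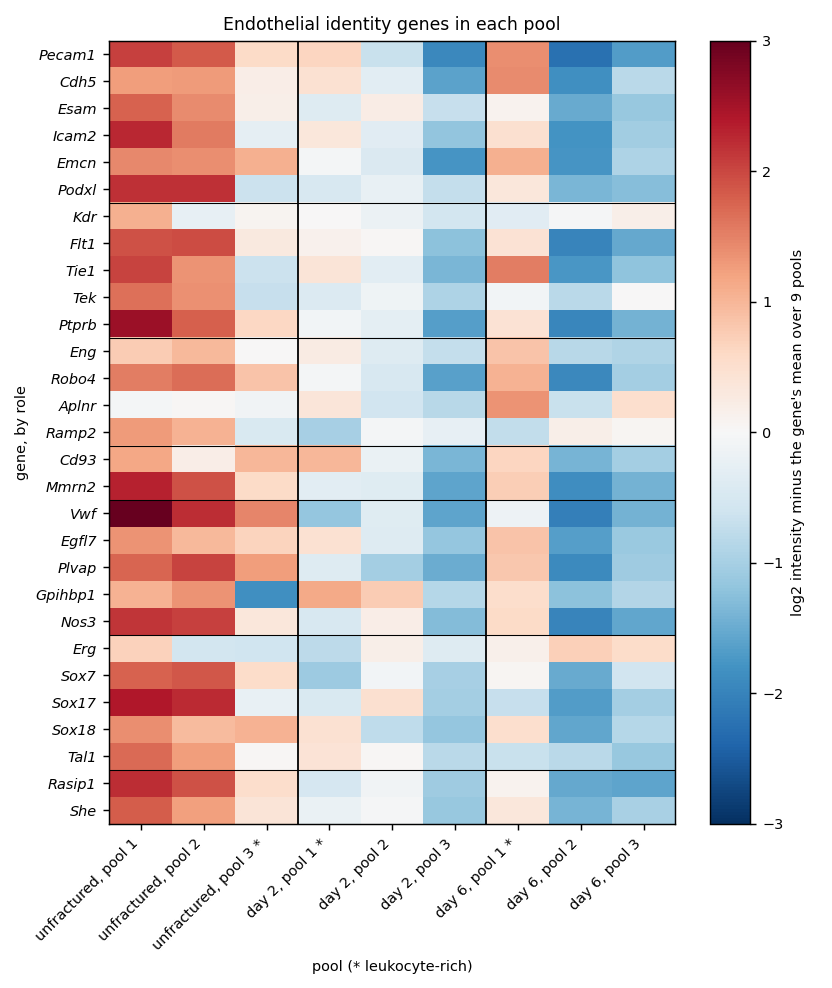
Log2 intensity of 29 endothelial identity genes (rows, grouped by role) in 9 pools (columns, grouped by condition), shown as the difference from each gene's mean over all pools; asterisks mark the leukocyte-rich pool of each group. Unfractured pools 1 and 2 are above the gene's mean for most genes and day 6 pools 2 and 3 below it, with day 6 pool 1 above the mean of the other 2 day 6 pools for 26 of 29 genes.

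Over all 9 pools, 28 of the 29 genes had a lower mean at day 2 than in unfractured periosteum and 27 of 29 had a lower mean at day 6, against 45.7% and 47.4% of all genes. The median difference was -1.60 on the log2 scale at day 2 and -1.87 at day 6, while the median over all genes was 0.06 and 0.04. Few genes passed singly with 3 pools per group. At day 6, 1 of the 29 genes, Vwf, fell at a limma adjusted p under 0.05 and 0 rose (background 0.625% of genes lower and 2.19% higher). At an unadjusted p under 0.05 the day 6 count was 19 lower (8.94% of all genes) and 0 higher (12.0%). At day 2, 0 of 29 passed in either direction in limma, as did 0% of all genes lower and 0% higher, and 15 were lower (7.02% of all genes) and 0 higher (9.11%) at an unadjusted p under 0.05. The 3 day 2 pools all lay below the 3 unfractured pools for 13 of the 29 genes (7.69% of all genes) and all above them for 0 (10.9%). The 3 day 6 pools did so for 11 genes below (11.8%) and 0 above (14.2%).

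Without the leukocyte-rich pools the same comparisons gave larger differences. The pools left out were chosen after their values were seen and went against the fall. The unfractured one lay below the mean of the other 2 for 28 of 29 genes. Those of day 2 and day 6 lay above it for 23 and 26. Leaving them out therefore widens most differences, and the adjusted p-values then rest on 2 pools per group and leave out that spread. In the 6 pools 24 of the 29 genes fell at day 2 (9.99% of all genes fell) and 26 fell at day 6 (14.1%). None of the 29 rose in limma at either time in these 6 pools, where 10.8% and 16.4% of all genes did. The median difference was -2.35 at day 2 and -2.86 at day 6. In the 3 leukocyte-rich pools the median difference was -0.20 and 0.15, with 18 and 14 of the 29 genes lower after fracture. Over all 10073 genes the median there was -0.04 and -0.05, with 5277 and 5358 genes lower. The relation seen in the 6 pools was therefore weak there at day 2 and not seen at day 6. Signal also moved with group in the 6 pools, where 40.4% and 46.4% of probes were detected in the unfractured pools and 52.1% to 55.2% in the fracture pools. When each array was scaled to a common median in place of quantile normalisation, the median of all genes shifted to 1.23 at day 2 and 1.08 at day 6 in the 6 pools. With that scaling 12 of the 29 genes fell and 0 rose at day 2 (all genes 1.87% lower and 59.1% higher), and 21 fell and 1 rose at day 6 (all genes 4.08% lower and 54.7% higher).

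**Figure D2:**
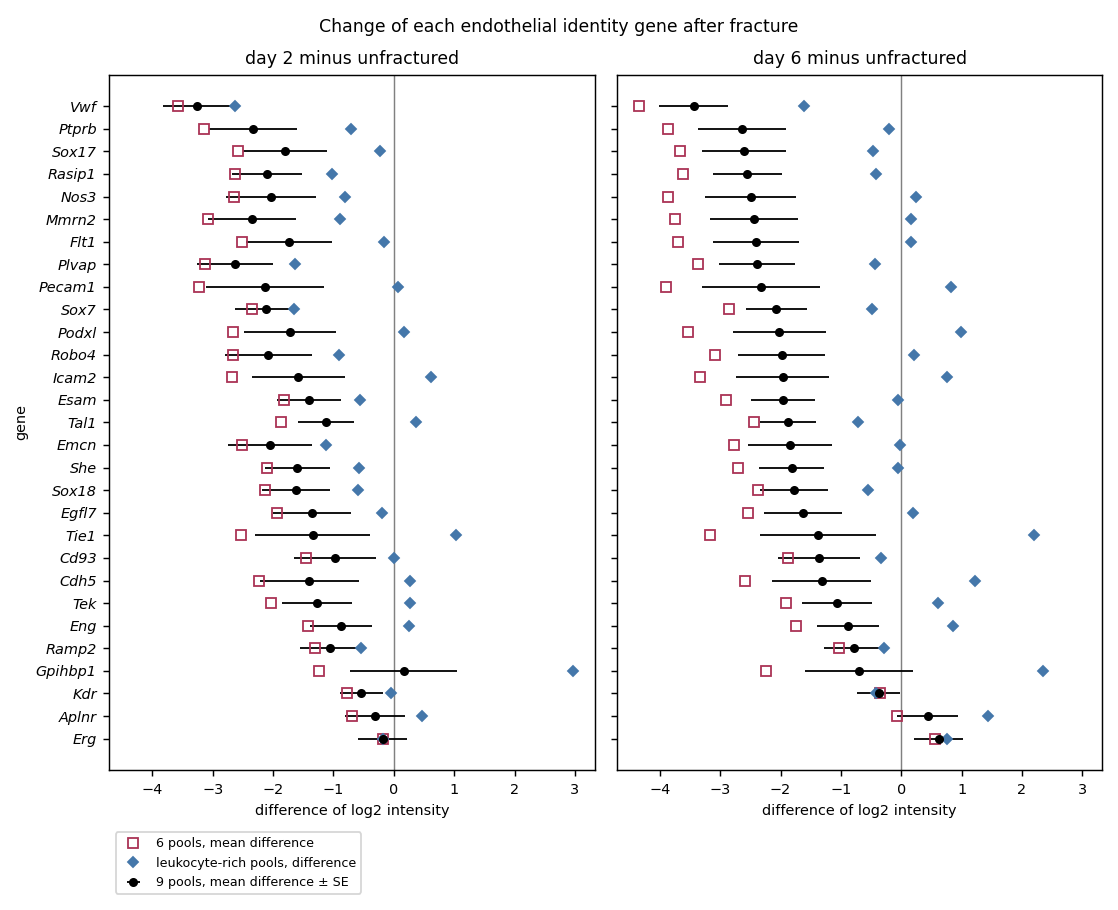
Difference of log2 intensity after fracture for 29 endothelial identity genes, at day 2 (left) and day 6 (right) against unfractured pools, ordered by the day 6 value. Black points with bars are mean differences over 9 pools with their standard error, open squares are mean differences over the 6 pools with low leukocyte signal, and blue diamonds are differences between leukocyte-rich pools; at day 6 the squares lie below -1 for 26 genes and 14 of the diamonds lie below 0.

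Promoter windows of 4 of the genes that fell at both times in the 6 pools are shown as examples, because ETS and SoxF factors are themselves among the genes measured. Each window of 300 bases spans the RefSeq start of the gene (GRCm38.p6) and is written 5′ to 3′ on the gene's strand. Capitals mark AGGAAG, a letter string that ETS factors favour, and ACAAT, the core bound by Sox factors, each searched on both strands with no overlap between them here.
Rasip1 (chr7:45627287-45627586, plus strand): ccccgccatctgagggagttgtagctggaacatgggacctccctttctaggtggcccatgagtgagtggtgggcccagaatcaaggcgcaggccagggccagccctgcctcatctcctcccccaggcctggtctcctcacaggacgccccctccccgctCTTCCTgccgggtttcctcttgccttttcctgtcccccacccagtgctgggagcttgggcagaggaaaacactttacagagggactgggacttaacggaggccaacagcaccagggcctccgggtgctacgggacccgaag
Tie1 (chr4:118489800-118490099, minus strand): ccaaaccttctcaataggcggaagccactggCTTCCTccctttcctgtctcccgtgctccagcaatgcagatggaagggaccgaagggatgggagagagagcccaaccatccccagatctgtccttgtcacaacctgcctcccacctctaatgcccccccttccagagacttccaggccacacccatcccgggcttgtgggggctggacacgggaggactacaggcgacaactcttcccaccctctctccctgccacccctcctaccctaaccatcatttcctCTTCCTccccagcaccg
Robo4 (chr9:37401722-37402021, plus strand): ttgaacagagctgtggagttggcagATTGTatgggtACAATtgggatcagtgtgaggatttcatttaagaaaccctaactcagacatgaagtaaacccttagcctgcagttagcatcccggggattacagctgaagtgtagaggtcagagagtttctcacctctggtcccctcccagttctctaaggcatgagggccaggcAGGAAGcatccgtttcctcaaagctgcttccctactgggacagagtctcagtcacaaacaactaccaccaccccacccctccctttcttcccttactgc
Emcn (chr3:137340828-137341127, plus strand): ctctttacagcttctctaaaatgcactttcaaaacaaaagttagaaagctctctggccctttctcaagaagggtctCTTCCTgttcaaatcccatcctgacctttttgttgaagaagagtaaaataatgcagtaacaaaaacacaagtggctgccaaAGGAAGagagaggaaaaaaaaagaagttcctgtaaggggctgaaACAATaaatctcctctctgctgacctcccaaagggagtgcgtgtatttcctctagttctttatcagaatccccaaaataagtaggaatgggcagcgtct
The counts that follow cover 20 windows from 15 of the 34 genes, which may not be every promoter window of the list. AGGAAG was found in 9 of these 20 windows, among them every window printed above, and in 35.4% of all 32851 windows. ACAAT was found in 5 of 20 and in 31.0% of all. The 4 printed genes were picked by hand, so their matches are not a result about the list. A match is a string of letters, not a bound site.

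Among junction and surface proteins, 6 genes were measured, and all 6 fell in the 6 pools at both times, with none passing over 9 pools. Cdh5 encodes VE-cadherin, the cadherin of endothelial junctions. The pools read 9.94, 9.96 and 8.88 without fracture, 9.14, 8.36 and 7.07 on day 2 and 10.10, 6.84 and 7.87 on day 6. The leukocyte-rich day 6 pool had the highest value of all 9 pools for Cdh5, so the groups overlapped, and the 9-pool difference at day 6 was -1.32 ± 0.82 (adjusted p = 0.397, SE, n = 3 pools per group). Without the leukocyte-rich pools Cdh5 fell by 2.59 (± 0.52; adjusted p = 0.0197, n = 2 pools per group).

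Pecam1 encodes an adhesion protein of endothelial cells that leukocytes and platelets also carry. The brighter of its 2 probes gave 11.96, 11.74 and 10.48 without fracture, 10.55, 9.25 and 7.98 on day 2 and 11.31, 7.67 and 8.25 on day 6. Within day 6 the leukocyte-rich pool stood 3.35 above the mean of the other 2 for this probe and 1.56 above it for the other probe. At day 2 these gaps were 1.93 and 0.43, and among the unfractured pools the leukocyte-rich one lay lower, with gaps of -1.37 and -2.43. The 2 probes of Pecam1 therefore placed the leukocyte-rich pools differently, while between group means over 9 pools they gave close values at day 6, -2.32 and -2.21. Among the 6 pools the brighter probe fell by 3.89 (± 0.46, adjusted p = 0.00523).

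Emcn encodes endomucin, a sialomucin of veins and capillaries that marks a vessel type of growing bone. Intensities were 12.47, 12.44 and 12.11 without fracture, 10.98, 10.60 and 9.26 on day 2 and 12.09, 9.26 and 10.10 on day 6. All 3 unfractured pools exceeded all fracture pools, with the leukocyte-rich day 6 pool only just below them. The difference was -2.06 ± 0.70 at day 2 (adjusted p = 0.254) and -1.85 ± 0.70 at day 6 (adjusted p = 0.181). In the 6 pools Emcn fell at both times (-2.52 and -2.77).

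Esam, an immunoglobulin-like protein of tight junctions that platelets also carry, had 13.80, 13.45 and 12.20 without fracture, 11.65, 12.26 and 11.34 on day 2 and 12.14, 10.53 and 10.90 on day 6. All fracture pools except day 2 replicate 2 lay below the lowest unfractured pool, and the day 6 groups did not overlap (difference -1.96 ± 0.53, adjusted p = 0.0894). Icam2, an adhesion molecule of resting endothelium and leukocytes, had 11.47, 10.75 and 8.93 without fracture, 9.54, 8.85 and 8.01 on day 2 and 9.68, 7.40 and 8.16 on day 6. The leukocyte-rich unfractured pool fell within the range of the fracture pools for Icam2. Podxl, a sialomucin of the vessel lumen that is also known from kidney podocytes, had 10.79, 10.79 and 7.96 without fracture, 8.13, 8.37 and 7.88 on day 2 and 8.94, 7.22 and 7.31 on day 6. Unfractured replicates 1 and 2 exceeded every other pool for Podxl, and in the 6 pools it fell at day 6 by 3.53 (± 0.22, adjusted p = 0.00189), the smallest adjusted p of the 29 genes.

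Of the receptor tyrosine kinases and their phosphatase, 5 of 6 genes were measured. Flt1, a VEGF receptor that monocytes also carry, had 13.38, 13.42 and 11.76 without fracture, 11.60, 11.51 and 10.25 on day 2 and 11.92, 9.48 and 9.93 on day 6. The day 2 pools all lay below the unfractured pools, though the leukocyte-rich unfractured pool was close to the highest of them and below the leukocyte-rich day 6 pool. The 9-pool difference for Flt1 was -1.73 ± 0.72 at day 2 (adjusted p = 0.292) and -2.41 ± 0.72 at day 6 (adjusted p = 0.110). It fell at both times (-2.52 and -3.69) in the 6 pools. A second Flt1 probe was detected on 1 array and was not used.

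Ptprb encodes VE-PTP, the phosphatase that acts on Tek and VE-cadherin. Its log2 intensities were 13.32, 12.54 and 11.39 without fracture, 10.67, 10.47 and 9.10 on day 2 and 11.19, 8.79 and 9.33 on day 6. All 6 fracture pools lay below all 3 unfractured pools. The difference was -2.34 ± 0.73 at day 2 (adjusted p = 0.242) and -2.65 ± 0.73 at day 6 (adjusted p = 0.0919). Without the leukocyte-rich pools Ptprb fell by 3.87 (± 0.53) at day 6.

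Tie1 and Tek are the receptor pair of the angiopoietin system, of which Tek binds the ligands. Tie1 had 9.57, 8.87 and 6.88 without fracture, 7.91, 7.22 and 6.16 on day 2 and 9.08, 5.80 and 6.32 on day 6. Its value in the leukocyte-rich day 6 pool exceeded those of the other 2 day 6 pools by 3.02 on average and lay above 2 of the 3 unfractured pools. The 9-pool difference of Tie1 at day 6 was -1.38 ± 0.96 (adjusted p = 0.451), and without the leukocyte-rich pools it fell by 3.16 (± 0.44). Tek had 11.57, 11.28 and 9.24 without fracture, 9.51, 9.78 and 8.99 on day 2 and 9.84, 9.10 and 9.94 on day 6. For Tek the leukocyte-rich day 6 pool lay between the other 2, and unfractured replicates 1 and 2 stood above every other pool. Among the 6 pools Tek fell by 2.04 at day 2 and by 1.90 at day 6. Kdr, the main VEGF receptor of endothelial cells, had values between 5.18 and 6.80 and was detected in 2 unfractured, 1 day 2 and 2 day 6 pools. At that level its probe can show little, and no difference was called in any of the settings tried.

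The other receptors gave a mixed picture. Robo4, a roundabout receptor of endothelial cells that steadies the vessel wall, had 11.98, 12.12 and 11.28 without fracture, 10.38, 9.97 and 8.80 on day 2 and 11.49, 8.52 and 9.42 on day 6. The day 2 pools all lay below the unfractured pools, and the leukocyte-rich day 6 pool was within the unfractured range. The difference of Robo4 was -2.08 ± 0.72 at day 2 (adjusted p = 0.255) and -1.99 ± 0.72 at day 6 (adjusted p = 0.170). Robo4 fell at both times in the 6 pools (-2.66 and -3.08). Of its 2 other probes, which were not kept, 1 was detected in unfractured replicates 1 and 2 alone and 1 on no array.

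Eng encodes endoglin, a co-receptor for TGF-beta and BMP9 that mesenchymal cells and macrophages also carry. The pools read 11.06, 11.27 and 10.29 without fracture, 10.53, 9.89 and 9.57 on day 2 and 11.15, 9.44 and 9.37 on day 6. They spanned a narrower range than those of most other genes on the list, and the leukocyte-rich day 6 pool reached the unfractured level. In the 6 pools Eng fell at both times (-1.43 and -1.75), but under median scaling over 9 pools its difference turned above 0 at both times, to 0.23 and 0.08.

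Ramp2 is the partner of the calcitonin receptor-like receptor in binding adrenomedullin. It had 13.08, 12.85 and 11.36 without fracture, 10.81, 11.75 and 11.56 on day 2 and 11.07, 11.98 and 11.88 on day 6. Ramp2 differed from most of the list in its order of pools, since the leukocyte-rich pool was the lowest of its group at all 3 times. Without the leukocyte-rich pools it fell at both times (-1.31 and -1.04), and median scaling of the same 6 pools turned both differences above 0 (0.25 and 0.36). Aplnr, the receptor for apelin, had 8.74, 8.85 and 8.71 without fracture, 9.18, 8.23 and 7.97 on day 2 and 10.15, 8.15 and 9.32 on day 6. It overlapped between all groups, had a 9-pool difference of 0.44 ± 0.50 at day 6 (adjusted p = 0.659) and did not pass in the 6 pools, except at day 6 under median scaling, where it rose by 1.19 against a shift of all genes of 1.08.

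Cd93 and Mmrn2 are a lectin-like receptor and the matrix protein it binds in the vessel wall. Mmrn2 had 12.53, 12.14 and 10.80 without fracture, 9.92, 9.87 and 8.64 on day 2 and 10.97, 8.37 and 8.81 on day 6. The leukocyte-rich day 6 pool exceeded the lowest unfractured pool of Mmrn2, and the other 5 fracture pools lay below all unfractured pools. Its difference was -2.35 ± 0.73 at day 2 (adjusted p = 0.242) and -2.44 ± 0.73 at day 6 (adjusted p = 0.111). Mmrn2 fell at both times in the 6 pools (-3.08 and -3.74). Cd93, which myeloid cells also carry, had 11.68, 10.72 and 11.51 without fracture, 11.51, 10.31 and 9.15 on day 2 and 11.17, 9.14 and 9.51 on day 6. Here the 3 leukocyte-rich pools lay between 11.17 and 11.51 whatever the group, and in the 6 pools Cd93 passed at day 6 (fell by 1.87, adjusted p = 0.0398) but not at day 2 (-1.46, adjusted p = 0.0856). The probe of Clec14a, a relative of Cd93, was detected on no array.

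Vwf showed the largest difference of the 29 genes. It encodes von Willebrand factor, a clotting protein that endothelial cells store in granules and that platelets also hold. Intensities were 13.35, 12.55 and 11.81 without fracture, 9.18, 9.98 and 8.76 on day 2 and 10.19, 8.28 and 8.92 on day 6. All 6 fracture pools lay below all 3 unfractured pools, with no overlap even in the leukocyte-rich pools, which differed by -2.63 at day 2 and -1.62 at day 6. Vwf fell by 3.44 (± 0.57) at day 6, which is 10.8-fold lower (limma adjusted p = 0.0189, n = 3 pools per group). At day 2 the difference was -3.26 ± 0.57 (adjusted p = 0.139, unadjusted p = 0.000317). The day 6 call held in 17 of 22 alternative settings and ended without unfractured replicate 1 or 2, without day 6 replicate 2 or 3, and when the fit held no day 2 pools (highest adjusted p = 0.0984, lowest adjusted p = 4.44e-07 with median scaling of the 6 pools). Of 5 measured platelet and megakaryocyte genes 0 fell at day 6 and 1 rose, Gp1bb (difference 2.44 ± 0.32, adjusted p = 0.00723). The mean of the 5, of a list of 12, was 5.09 to 7.62 in the unfractured pools, 6.98 to 7.59 at day 2 and 6.67 to 7.39 at day 6, and their part in the Vwf result was not tested.

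Plvap forms the diaphragms of fenestrae and caveolae. Its log2 intensities were 13.42, 13.71 and 12.93 without fracture, 11.30, 10.67 and 10.20 on day 2 and 12.49, 9.78 and 10.61 on day 6. All 6 fracture pools again lay below all 3 unfractured pools. The difference was -2.63 ± 0.63 at day 2 (adjusted p = 0.186) and -2.39 ± 0.63 at day 6 (adjusted p = 0.0818). Among the 6 pools Plvap fell at both times (-3.13 and -3.37), and it was among the 7 genes that fell at day 6 when the leukocyte mean of each pool was added to the 9-pool model.

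Nos3, the endothelial nitric oxide synthase, was read by 3 probes that all passed the filter. The brightest gave 11.35, 11.27 and 9.54 without fracture, 8.74, 9.42 and 7.91 on day 2 and 9.78, 7.23 and 7.67 on day 6. The day 6 differences of the 3 probes were -2.49, -2.28 and -2.11, and the leukocyte-rich day 6 pool exceeded the mean of the other 2 by 2.34, 2.36 and 2.66. All 3 probes thus placed that pool in the same way. The 9-pool adjusted p of the brightest was 0.111, and in the 6 pools it fell by 3.86 (± 0.50).

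Egfl7, a secreted protein of the vessel wall, had 12.70, 12.34 and 12.02 without fracture, 11.82, 10.97 and 10.19 on day 2 and 12.22, 9.70 and 10.25 on day 6. The leukocyte-rich day 6 pool exceeded the leukocyte-rich unfractured pool for Egfl7, while in the 6 pools it fell at both times (-1.94 and -2.54). Gpihbp1, which carries lipoprotein lipase across capillary walls, had 9.10, 9.40 and 6.23 without fracture, 9.20, 8.81 and 7.20 on day 2 and 8.58, 6.84 and 7.19 on day 6. It was the exception among the vessel proteins, since unfractured replicate 3 was the lowest of all 9 pools and the day 2 pools overlapped the unfractured ones. Its difference at day 2 was 0.16 ± 0.89 over 9 pools and -1.24 in the 6 pools (adjusted p = 0.140). At day 6 it fell by 2.24 in the 6 pools, where the leukocyte-rich pools differed by 2.35 in the opposite direction.

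Of the transcription factors, the 3 SoxF genes and Tal1 fell at both times in the 6 pools, and Erg did not. Sox17, which is needed for arterial identity, had 10.74, 10.57 and 8.12 without fracture, 7.89, 8.82 and 7.32 on day 2 and 7.65, 6.66 and 7.32 on day 6. Unfractured replicates 1 and 2 stood above all other pools, and the day 6 pools all lay below the unfractured pools. The difference at day 6 was -2.60 ± 0.70 (adjusted p = 0.0856), and it passed when the 2 probes of Sox17 were averaged (-2.72) and with the leukocyte mean in the model. Sox7 had 11.75, 11.85 and 10.53 without fracture, 8.88, 9.89 and 8.99 on day 2 and 10.04, 8.48 and 9.41 on day 6. All 6 fracture pools lay below all 3 unfractured pools for Sox7 (difference -2.12 ± 0.51 at day 2, adjusted p = 0.186, and -2.07 ± 0.51 at day 6, adjusted p = 0.0666). Sox18, a factor of vessel and lymphatic formation, had 9.89, 9.43 and 9.53 without fracture, 8.93, 7.72 and 7.32 on day 2 and 8.98, 6.93 and 7.63 on day 6. The day 2 and day 6 pools did not overlap the unfractured pools for Sox18 either, with differences of -1.63 ± 0.56 and -1.77 ± 0.56 (adjusted p = 0.255 and 0.127).

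Tal1, a factor shared by endothelial and blood-forming cells, had 7.89, 7.46 and 6.25 without fracture, 6.62, 6.23 and 5.38 on day 2 and 5.52, 5.39 and 5.07 on day 6. It was detected in all 3 unfractured pools, in 2 day 2 pools and in none at day 6, and it was therefore at least 3.07-fold higher in unfractured pools than at day 6 (adjusted p = 0.0690). This bound sets the unfractured mean against the intensity at which probes were detected on the day 6 arrays. Because Tal1 passed the filter through the groups in which it was high, its detection pattern adds nothing to its difference. Erg, the ETS factor of mature endothelium, had values of 4.64 to 6.14 and was detected in 0 unfractured, 1 day 2 and 3 day 6 pools. Its day 6 mean lay under the detection level of the unfractured arrays, so no fold is given, and its second probe was detected on no array.

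Both intracellular adaptors were lower in every fracture pool than in any unfractured pool, and both fell at both times in the 6 pools. Rasip1, which links Ras-family GTPases to vessel lumen formation, had 10.85, 10.53 and 9.16 without fracture, 8.12, 8.53 and 7.57 on day 2 and 8.74, 7.09 and 7.05 on day 6. The leukocyte-rich pools of Rasip1 differed by -1.03 at day 2 and -0.42 at day 6. The difference of Rasip1 was -2.10 ± 0.58 at day 2 (adjusted p = 0.204) and -2.55 ± 0.58 at day 6 (adjusted p = 0.0558), next after Vwf in its adjusted p. It passed at day 6 when background was not corrected, with the deposited values and with the leukocyte mean in the model. She, an SH2-domain adaptor, had 9.71, 9.11 and 8.27 without fracture, 7.69, 7.86 and 6.76 on day 2 and 8.23, 6.50 and 6.92 on day 6. Its fracture pools also lay below all unfractured pools, with differences of -1.60 ± 0.54 and -1.82 ± 0.54 (adjusted p = 0.254 and 0.109).

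Between day 2 and day 6 no gene of the list passed. In limma 0 of 29 fell (0.109% of all genes) and 0 rose (1.31%), 0 had an unadjusted p under 0.05 (4.64% of all genes lower and 7.00% higher), and for 0 genes did the day 6 pools all lie below (13.2% of all genes) or all above (11.8%) the day 2 pools. The difference was below 0 for 19 of the 29 genes (54.0% of all genes). Its median was -0.18, and among the 26 genes detected on all arrays it ran from -0.87 for Gpihbp1 to 0.75 for Aplnr. Erg is left out of that range because it passed the filter mainly through day 6. In the 6 pools the median was -0.60, with 24 of 29 genes lower at day 6 and again 0 called in either direction (all genes 1.04% lower and 2.44% higher). The lowest value there was that of Nos3 (-1.22 ± 0.50, adjusted p = 0.239). In the leukocyte-rich pools the median was 0.61, with day 6 lower for 5 of 29 genes (5151 of all 10073 genes). Pools of the same number deviated together at these times, but so did pools 2 and 3 across numbers (correlations of 0.57 and 0.33). A pairing by number is thus not established, and differences within same-numbered pairs are given only beside the others. For 2 genes day 6 was lower in all 3 pairs (26.8% of all genes) and for 2 higher (23.6%), while 25 were mixed. Ramp2 was higher by 0.26, 0.23 and 0.31, and Gpihbp1 differed by -0.62, -1.98 and -0.01. The others were Tal1, which was undetected at day 6, and Erg, which was detected in 1 day 2 pool. In a fit with a replicate block the lowest adjusted p among the 29 genes was 0.340, that of Tal1. Both fracture groups share the unfractured pools in the comparisons above.

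The leukocyte-rich pool did not shift endothelial genes the same way in each group. Among unfractured pools it lay below the mean of the other 2 for 28 of 29 genes, with a median gap of -1.37. At day 2 it lay above them for 23 genes (median gap 0.80) and at day 6 for 26 genes (median gap 1.70). The gap over all genes had a median of 0.02, -0.15 and -0.10. At day 6 the widest gaps were those of Pecam1 (3.35), Tie1 (3.02), Cdh5 (2.74) and Robo4 (2.52), and Ramp2 was the lowest at -0.86. Erythroid transcripts were high in the same day 6 pool, where the mean of 3 measured genes of a list of 8 was 10.86 against 7.25 and 7.75. Their mean was 11.74, 9.22 and 9.54 without fracture and 9.06, 8.79 and 8.10 on day 2. All 3 erythroid genes were below the unfractured mean at both times, with a median of -1.28 and -1.51 over 9 pools and of -1.71 and -3.30 in the 6 pools. Of 10 neutrophil genes 8 were below it at day 2 and 10 at day 6, with a median of -0.51 and -1.34 over 9 pools and of -1.50 and -1.87 in the 6 pools. None of these 13 genes passed in limma over 9 pools. In the 6 pools 1 of the 3 erythroid genes fell at day 2 and 2 at day 6. Of the 10 neutrophil genes 1 fell at day 2 and 2 at day 6 there, beside 9.99% and 14.1% of all genes. The part of any of these cell types in the endothelial values was not tested.

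Pericyte and smooth muscle genes, which mark the cells that the label targets around vessels, did not share that day 6 pattern. The mean of 14 measured genes of a list of 16 was 11.45, 11.16 and 9.25 without fracture, 8.26, 10.41 and 9.85 on day 2 and 8.91, 9.24 and 9.17 on day 6. It was low in the leukocyte-rich unfractured and day 2 pools, as in the endothelial list for the unfractured pool, but at day 6 the leukocyte-rich pool had the lowest value and not the highest. Over 9 pools the median of the 14 genes was -0.95 at day 2 and -1.35 at day 6, with 0 fallen and 1 risen at day 6. Without the leukocyte-rich pools 7 of the 14 fell at day 2 (median -1.10) and 11 fell and 1 rose at day 6 (median -2.30), beside the endothelial medians of -2.35 and -2.86. Of all genes 9.99% fell at day 2 there, and 14.1% fell and 16.4% rose at day 6. Whether the lists differ in their change was not tested.

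**Figure D3:**
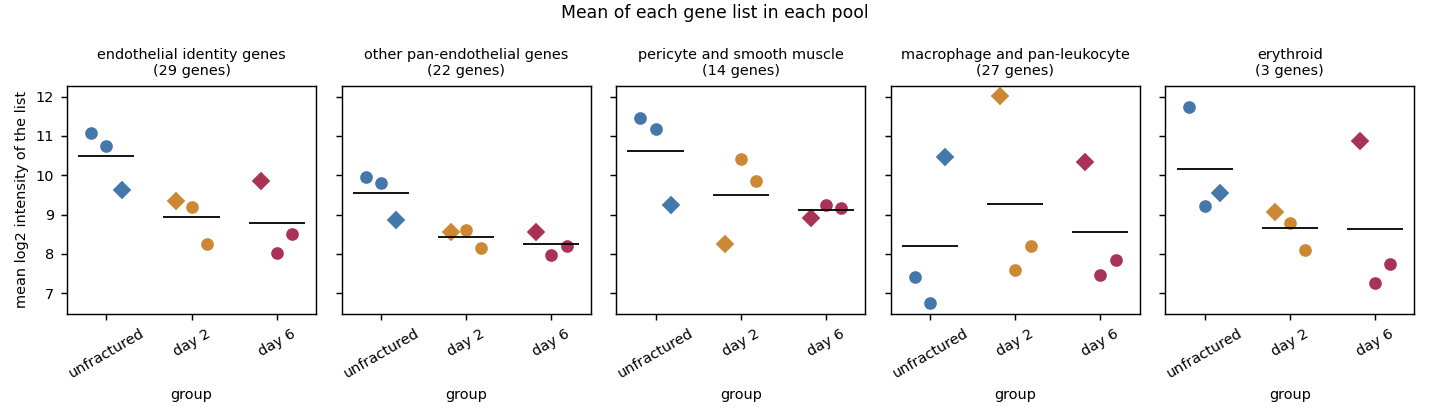
Mean log2 intensity of 5 gene lists in each of 9 pools; circles are pools, diamonds the leukocyte-rich pool of each group, and bars the mean of 3 pools. Both endothelial lists are highest in unfractured pools 1 and 2, and in the day 6 group the diamond is the highest endothelial and erythroid value and the lowest pericyte value.

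Other endothelial genes, chosen as a second list with no overlap with the first, behaved in a similar way. Of 29 genes 22 were measured, and over 9 pools all 22 had a lower mean at both times, with a median of -1.12 at day 2 and -1.39 at day 6. In the 6 pools 15 fell at day 2 and 18 at day 6 (9.99% and 14.1% of all genes), and 0 rose (10.8% and 16.4%). Over 9 pools 2 fell at day 6 (0.625% of all genes) and 0 at day 2 (0%). Gata2, a transcription factor of endothelial and blood-forming cells, had 10.07, 10.27 and 9.26 without fracture, 8.57, 8.54 and 8.23 on day 2 and 8.27, 7.49 and 7.28 on day 6, and fell by 2.19 (± 0.36) at day 6 (adjusted p = 0.0173). Rapgef3, an exchange factor that responds to cyclic AMP and tightens junctions, was detected in 3 unfractured pools and 0 day 6 pools and was at least 2.52-fold higher in unfractured pools (adjusted p = 0.0430). Because the unfractured pools alone were enough for Rapgef3 to pass the filter, its detection pattern adds nothing to its difference. Ushbp1 and Ccm2l had differences of -1.72 ± 0.42 and -1.99 ± 0.53 (adjusted p = 0.0660 and 0.0845).

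Genes that mark kinds of vessel were counted the same way. Of 7 venous and activated endothelial genes 1 fell at day 6, Ackr1, the chemokine receptor of small veins. The pools read 12.25, 12.81 and 11.34 without fracture, 8.77, 10.05 and 9.91 on day 2 and 9.68, 9.11 and 9.58 on day 6, and it fell by 2.68 (± 0.46; adjusted p = 0.0198). Selp, the P-selectin of endothelial granules and platelets, had 14.74, 14.74 and 12.66 without fracture, 10.23, 11.45 and 10.02 on day 2 and 12.39, 10.10 and 10.35 on day 6. All 6 fracture pools lay below the unfractured pools for Ackr1 and Selp. The difference of Selp was -3.48 ± 0.77 at day 2 (adjusted p = 0.173) and -3.10 ± 0.77 at day 6 (adjusted p = 0.0674). Sele, the E-selectin of activated endothelium, differed by -3.63 ± 0.85 at day 2 (adjusted p = 0.184) and -2.95 ± 0.85 at day 6 (adjusted p = 0.104). Ephb4, the ephrin receptor of venous endothelium, went the other way, with 5.63, 5.78 and 5.33 without fracture, 6.05, 6.46 and 6.93 on day 2 and 6.22, 6.38 and 6.46 on day 6. It was detected in 0 unfractured pools and in all 6 fracture pools, which all lay above the unfractured ones, and it did not pass over 9 pools (adjusted p = 0.240 at day 2 and 0.161 at day 6). It passed the filter through the fracture pools. In the 6 pools its limma adjusted p at day 2 was 0.0373. Its unfractured values there lay under the detection levels of those arrays (6.66 and 6.05), so no rise is read from it. In the 6 pools 4 of the 7 genes passed lower and 1, Ephb4, higher at day 2 (all genes 9.99% and 10.8%). At day 6, 5 passed lower and 0 higher (14.1% and 16.4%).

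Of 9 measured arterial and tip cell genes 0 passed over 9 pools, with 3 lower at an unadjusted p under 0.05 at day 2 and 6 at day 6, beside 7.02% and 8.94% of all genes, and 0 higher at either time, beside 9.11% and 12.0%. Angpt2, a ligand of Tek released by activated endothelium, had 11.91, 11.81 and 11.93 without fracture, 9.64, 11.39 and 10.46 on day 2 and 10.75, 9.76 and 9.87 on day 6 and a day 6 difference of -1.75 ± 0.44 (adjusted p = 0.0740). Gja5, a connexin of arterial endothelium, had a day 6 difference of -2.20 ± 0.60 (adjusted p = 0.0897). In the 6 pools 3 of the 9 fell at day 2 and 5 at day 6 (9.99% and 14.1% of all genes), and 0 rose (10.8% and 16.4%). Of 4 measured capillary genes 0 passed against the unfractured pools over 9 pools, and 3 of the 4 had a mean below the unfractured one at each time. In the 6 pools 2 of the 4 fell and 0 rose at each time. Aqp1, a water channel, and Cd300lg, a surface protein of capillaries, had day 6 differences of -1.61 ± 0.46 and -2.21 ± 0.94 (adjusted p = 0.100 and 0.228). Car4, a carbonic anhydrase of capillaries, was detected in 1 unfractured, 3 day 2 and 0 day 6 pools, and so passed the filter mainly through day 2, where it was high. It had 5.20, 6.63 and 5.42 without fracture, 7.56, 7.76 and 9.65 on day 2 and 4.95, 5.38 and 5.40 on day 6, and it was at least 6.68-fold higher at day 2 than at day 6 (adjusted p = 0.0410).

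Lymphatic genes did not move together. Of 5 measured, 0 passed over 9 pools in any of the 3 comparisons, 1 was lower and 1 higher at an unadjusted p under 0.05 at day 6, and the median was 0.16 at day 2 and -0.15 at day 6. In the 6 pools 1 rose and 0 fell at day 2 (all genes 10.8% higher and 9.99% lower). At day 6, 1 fell and 0 rose there (14.1% lower and 16.4% higher). Prox1, the factor of lymphatic identity, had a day 6 difference of -1.12 ± 0.48 (adjusted p = 0.233), and Reln had 1.45 ± 0.50 (adjusted p = 0.152). The 2 probes of Flt4, the VEGF receptor of lymphatic vessels, were detected on 1 array (day 6 replicate 1) and on none.

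Ligands of these receptors were counted last. Of 9 measured VEGF and angiopoietin ligands and neuropilins 1 fell at day 6 over 9 pools, Vegfc, and 0 rose, with a list median of -0.54. In the 6 pools 1 fell at day 2 and 3 at day 6 (9.99% and 14.1% of all genes), and 0 rose (10.8% and 16.4%). Vegfa, the main ligand of Kdr and Flt1, had 11.25, 11.16 and 11.43 without fracture, 10.35, 11.06 and 11.04 on day 2 and 12.13, 11.61 and 11.53 on day 6, so the day 6 pools all lay above and the day 2 pools all below the unfractured pools. Its day 6 difference of 0.48 ± 0.28 did not pass (adjusted p = 0.370). Angpt1, the activating ligand of Tek, had 9.02, 8.27 and 8.55 without fracture, 6.39, 7.82 and 7.28 on day 2 and 7.75, 8.36 and 8.12 on day 6. It was low at day 2 in all 3 pools, with no overlap with the unfractured pools (difference -1.45 ± 0.39, adjusted p = 0.197). Nrp1, a co-receptor for VEGF, had a day 6 difference of -0.90 ± 0.22 (adjusted p = 0.0640). Whether ligands and receptors differed in their change was not tested.

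**Figure D4:**
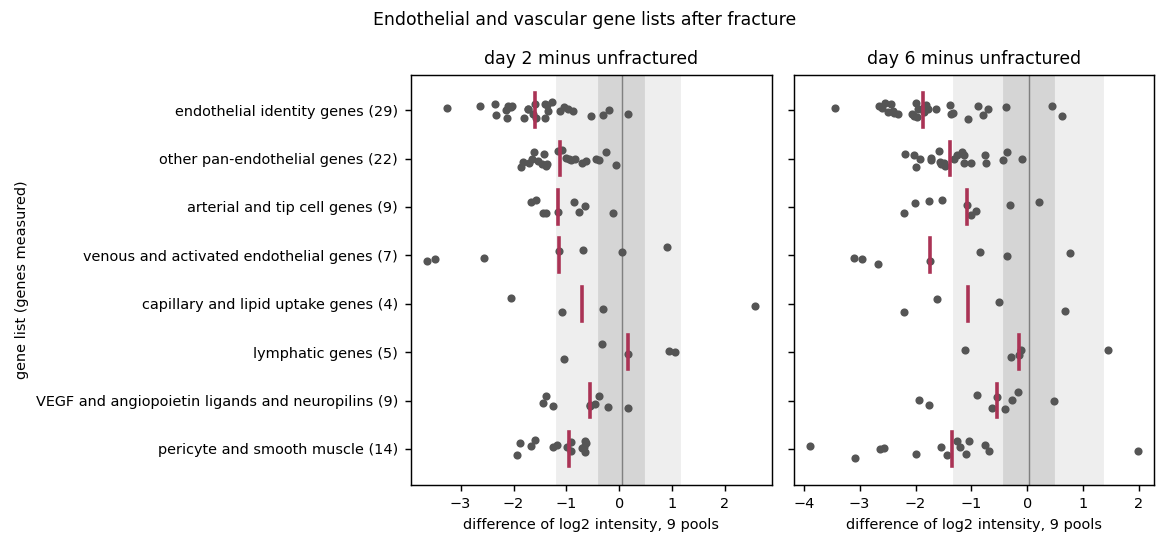
Difference of log2 intensity over 9 pools for the genes of 8 vascular lists at day 2 (left) and day 6 (right) against unfractured pools; points are genes, red bars list medians, and the light and dark bands the central 90% and 50% of all 10073 genes with their median as a line. The median of every list except the lymphatic one, the pericyte and smooth muscle list included, lies to the left of the dark band at both times. That of the lymphatic list lies inside it at both times.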

How the data were processed

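RNA of 9 pools of sorted cells was read on Illumina bead arrays. Per the file headers, the deposited table gives an intensity and a detection p-value per probe. It had not been normalised, and GenomeStudio is named in the submitters' processing notes. A second deposited table of intensity values, normalised by the authors, served as an alternative.

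The intensities were background-corrected with neqc of limma 3.58.1 (R 4.3.3; normexp, offset 16, with the negative controls' mean and variance estimated through the detection p-values), quantile-normalised and log2-transformed. Of 25697 probes, 23978 had 1 gene symbol in the platform annotation and 1719 had none. The filter (detection p under 0.05 on at least 3 arrays) kept 14519 probes. The brightest kept probe stood for each of 10073 genes. A linear model over all 9 arrays with 6 residual degrees of freedom was tested with limma's lmFit and eBayes, and p-values were adjusted by Benjamini-Hochberg over all genes, with an adjusted p under 0.05 as the threshold. The procedure was tested on simulated data. A gene undetected on all arrays of a group has only a bound there.

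All 34 genes are named, and of the other lists up to 4 genes by adjusted p in each comparison. The members and lists were chosen with earlier results of these data known, and the leukocyte-rich pools were chosen after their values were seen. Pools of animals are the replicates, and p-values set a difference between groups against the spread between pools. In the 6 pools that spread comes from the 2 pools left in each group. Scaling, background correction, filters, probes, sex, the leukocyte mean, the groups in the fit and each pool in turn were varied. Same-numbered pools deviated together between day 2 and day 6 (correlations of 0.63, 0.52 and 0.51), which comes from the values and not from the labels. Pools 2 and 3 of these times also correlated across numbers (0.57 and 0.33), so the values do not establish a pairing by number. Against the unfractured pools the same-numbered correlations were -0.19, 0.40 and -0.31 for day 2 and -0.14, 0.26 and -0.28 for day 6. Promoter windows came from RefSeq (GRCm38.p6). The positions of the probes were not used here.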

Additional observations from a re-analysis of the deposited data

How the results depend on the processing

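The count of identity genes that fell depended most on the leukocyte-rich pools. At day 6 it was 1 over 9 pools and 26 in the 6 pools without them, 21 there with median scaling (where 1 gene, Aplnr, rose) and 26 there with no background correction. At day 2 it was 0 over 9 pools and 24, 12 and 25 in those settings, which were chosen after seeing the data. Leaving out 1 pool at a time gave 0 to 8 fallen genes at day 2 and 0 to 14 at day 6. The highest counts came without unfractured replicate 3 (8 and 14), and without day 6 replicate 1 the day 6 count was 10. The day 6 count was 2 with no background correction, 2 with the deposited values, 2 with the mean of each gene's probes, 4 with a replicate block, 7 with the leukocyte mean in the model and 0 with only the 2 groups in the fit. The cause was not tested. Between day 6 and day 2 no identity gene passed in any setting, the replicate block included.

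Over all genes, 0 were called at day 2, 284 at day 6 and 143 between day 6 and day 2. The 6 pools gave 2095, 3068 and 351, with median scaling 6144, 5920 and 652, and with no background correction 2877, 3397 and 967. For day 6 against unfractured, the leukocyte mean in the model gave 918 and only 2 groups gave 139. For day 6 against day 2, median scaling gave 80, the replicate block 89, the leukocyte mean 258 and only 2 groups 216. Leaving out 1 pool gave 0 to 924, 53 to 1568 and 47 to 189. Median scaling over 9 pools moved the median of all genes to 0.83 at day 2 and 0.71 at day 6, and that of the identity genes to -0.62 and -1.01. It also moved the share of lower genes among those called at day 6 from 22.2% to 2.59%, and with the leukocyte mean in the model that share was 40.3%. With median scaling of the 6 pools it went from 48.0% to 3.06% at day 2 and from 46.2% to 6.94% at day 6. Probes near background, such as those of Kdr, Erg and Tal1, limit what can be read from those genes.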

Other observations

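Among 5 genes with several kept probes, the probes of Pecam1 differed most in where they placed the leukocyte-rich pools. Its probe ILMN_2700982 gave 10.48, 10.55 and 11.31 in the leukocyte-rich pools of the unfractured, day 2 and day 6 groups, and probe ILMN_3147074 gave 8.99, 9.10 and 9.44. In the 6 other pools the same 2 probes ran from 7.67 to 11.96 and from 7.58 to 11.76. The positions of the 2 probes in the transcript were not used here.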
